A study of Homo sapiens with 10 samples.

Results

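Replicate 1 was compared with replicate 2 within each of 5 groups of one cell line, over all 10 libraries of the series, which gave 5 pairs. The members are every library whose name ends in 1 and every library whose name ends in 2, paired within the group. Of the 10 libraries, 8 came from the clones ABTr1, ABTr2, ABTr3 and ABTr4, and 2 came from parental PEO1. PEO1 is an established epithelial line of high grade serous ovarian carcinoma that lacks functional BRCA2, a protein of DNA break repair. The ABTr clones are PEO1 cells made resistant to veliparib, an inhibitor of PARP1, by 6 months in 40 µM of the drug, and were kept off it for 4 to 5 days before RNA was taken. Parental PEO1, labelled WT, is the untreated line the clones were made from. All groups grew in the same serum medium with insulin, and each clone is 1 selected line. RNA with a poly(A) tail was read as gene counts. The series' design text speaks of 15 samples and 3 independent experiments, while 10 libraries are analysed here. No label ties a replicate number to one of those experiments or says what it marks (a day, a culture or a library run), so each p-value reflects only how these libraries vary, which may be technical. Clones are named by their sample titles, which match the columns of the count table. The sample descriptions number the clones otherwise (ABTr1 is described as clone 4), and since both libraries of a clone carry the same description, the pairs are the same under either numbering.

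Several programs are known to move when cultures of one line differ in growth state. Dividing cells transcribe the genes of DNA replication under the E2F factors, while cells that stop dividing raise genes of FOXO factors and growth arrest. Interferon response genes carry a response element bound by STAT and IRF factors and are raised by cytokines or by nucleic acid in the cytoplasm, and ATF4 raises genes of amino acid supply when amino acids are short or the endoplasmic reticulum is stressed.

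Promoter sequence is shown for 4 genes of the 2 programs whose promoter windows most often held the motif searched for. The 250 bases before the start of each gene are from RefSeq on GRCh38.p14, 5′ to 3′ on the gene's strand, with the motif match on either strand in capitals. The interferon-stimulated response element was searched as GAAANNGAAA, and the E2F site as TTTNNCGC, both on either strand. BST2 (chr19:17405631-17405880, minus strand) holds 2 overlapping matches of the response element and GBP1 (chr1:89065209-89065458, minus strand) holds 1, while POLE (chr12:132687343-132687592, minus strand) and POLA1 (chrX:24693668-24693917, plus strand) each hold 1 E2F match.
BST2: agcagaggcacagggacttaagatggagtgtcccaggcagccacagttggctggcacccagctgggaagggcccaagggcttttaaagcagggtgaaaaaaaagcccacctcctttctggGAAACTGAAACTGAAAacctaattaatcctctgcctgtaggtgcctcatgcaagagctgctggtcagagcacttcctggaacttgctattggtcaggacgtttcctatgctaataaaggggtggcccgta
GBP1: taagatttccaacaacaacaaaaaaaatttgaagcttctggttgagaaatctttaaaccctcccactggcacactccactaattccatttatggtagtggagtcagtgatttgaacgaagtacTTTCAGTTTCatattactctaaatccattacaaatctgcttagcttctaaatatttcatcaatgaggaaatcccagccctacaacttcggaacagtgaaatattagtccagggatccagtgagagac
POLE: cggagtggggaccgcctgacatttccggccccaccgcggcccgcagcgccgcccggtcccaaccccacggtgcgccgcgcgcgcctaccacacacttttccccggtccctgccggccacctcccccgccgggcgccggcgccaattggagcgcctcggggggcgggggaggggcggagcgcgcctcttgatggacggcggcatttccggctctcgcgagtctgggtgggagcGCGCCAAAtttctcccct
POLA1: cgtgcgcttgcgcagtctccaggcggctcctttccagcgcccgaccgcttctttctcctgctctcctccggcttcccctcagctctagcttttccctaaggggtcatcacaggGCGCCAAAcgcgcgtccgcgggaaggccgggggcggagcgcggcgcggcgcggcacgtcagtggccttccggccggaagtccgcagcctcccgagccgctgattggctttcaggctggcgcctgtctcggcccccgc

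Of the tested genes, 11535 had a RefSeq promoter window. The response element was found in 19 of 31 interferon response promoters (61.3%), against 2.96% of all tested promoters. The E2F site was found in 22 of 35 DNA replication promoters (62.9%), against 9.99% of all tested promoters and in 3 of 30 mitosis promoters (10.0%). A match describes the letters in the window and does not show binding.

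Library totals lay between 55488566 counts in ABTr2 replicate 1 and 20640602 counts in ABTr2 replicate 2, and the replicate 1 total was 1.08 to 2.69 times that of its partner in 5 of 5 groups. Of 25370 genes in the table, 16490 passed the filter on low counts. Levels are CPM, counts scaled to library size with TMM factors, and the log2 difference of a pair is replicate 1 over replicate 2. Markers of the ovarian epithelial line summed to 2380 to 7980 CPM in replicate 1 and 2450 to 11000 CPM in replicate 2. Fibroblast markers summed to 141 to 179 CPM in replicate 1 and 99.2 to 205 CPM in replicate 2, most of it THY1 (mean 140 CPM), with DCN, LUM and COL3A1 at 0 reads in every library. Leukocyte markers, led by CD68, summed to 41.7 to 135 CPM in replicate 1 and 53.8 to 147 CPM in replicate 2, and erythroid markers to at most 0.277 CPM in any library. Mesothelium markers, led by MSLN, which ovarian carcinoma also expresses, summed to 51.2 to 146 CPM in replicate 1 and 92.4 to 225 CPM in replicate 2 and were lower in replicate 1 in 5 of 5 pairs. Endothelium markers, led by CDH5, summed to 2.13 to 15.5 CPM in replicate 1 and 2.01 to 62.4 CPM in replicate 2. Single markers called higher in replicate 2 were FAP (log2 fold change -1.86 ± 0.36 SE, adjusted p = 0.0044), ACTA2 (log2 fold change -0.79 ± 0.17 SE, adjusted p = 0.0077), CD14 (log2 fold change -1.62 ± 0.24 SE, adjusted p = 0.0018), CDH5 (log2 fold change -2.89 ± 0.49 SE, adjusted p = 0.0028) and MSLN (log2 fold change -0.87 ± 0.15 SE, adjusted p = 0.0029), and those called higher in replicate 1 were WT1 (log2 fold change 1.49 ± 0.46 SE, adjusted p = 0.034) and LRRN4 (log2 fold change 0.89 ± 0.30 SE, adjusted p = 0.048). Among the ovarian epithelial line markers KRT7, the most abundant of them (mean 1420 CPM), was also called higher in replicate 2. The WT1 call was lost without the ABTr2 pair (adjusted p = 0.0903), the ABTr4 pair (0.0866) or the PEO1 pair (0.071), and the LRRN4 call without the ABTr1 pair (0.124), the ABTr2 pair (0.0954) or the ABTr3 pair (0.111). The part of these markers in the results below was not tested. In bulk RNA, fewer cells in a state and less RNA per cell cannot be told apart.

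Replicate number moved with a large share of the transcriptome. It accounted for 19.1% of the variance of log2 CPM over tested genes and 54.7% of the variance within groups, beside 65.0% for the group and 15.8% for the remainder. The test on 5 pairs, with group as a block, called 4999 of 16490 genes at an adjusted p under 0.05 (30.3%). Of these, 2441 were higher in replicate 1 (14.8% of tested genes) and 2558 were higher in replicate 2 (15.5% of tested genes). The shares of genes that follow are also of the 16490 tested. The called genes with the same sign in 5 of 5 pairs numbered 4430 (26.9%), namely 2198 higher in replicate 1 (13.3%) and 2232 higher in replicate 2 (13.5%). Regardless of the test, 6165 genes (37.4%) had the same sign in all 5 pairs. Among the called genes, 643 (3.9% of tested genes) were at least 2-fold higher in replicate 1 and 849 (5.15%) at least 2-fold higher in replicate 2. With the same sign in 5 of 5 pairs as well, 600 genes (3.64%) were at least 2-fold higher in replicate 1 and 709 (4.3%) at least 2-fold higher in replicate 2. For 1320 genes (8%) the libraries of the 2 numbers did not overlap at all. The number of calls rests on ABTr2 and ABTr4, since 2525 genes were called without the ABTr2 pair and 2991 without the ABTr4 pair. Without the ABTr1, ABTr2, ABTr3, ABTr4 or PEO1 pair, 2010, 1230, 1955, 1472 or 2907 genes were higher in replicate 1. Those higher in replicate 2 then numbered 2185, 1295, 1873, 1519 or 2811. List counts with a pair left out are read against these totals. After all libraries were thinned to 20640602 reads, 4813 genes were called, 4643 of them among the 4999. Thinning matched the total counts only.

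Pairs differed in how far their libraries stood apart. Genes over 2-fold apart numbered 2074 in the ABTr1 pair, 4092 in the ABTr2 pair, 2786 in the ABTr3 pair, 3079 in the ABTr4 pair and 3872 in the PEO1 pair. Across genes, the log2 differences of 2 clone pairs correlated with Pearson's r of 0.43 to 0.71, highest for ABTr2 with ABTr4, and those of a clone pair and the PEO1 pair with r of 0.26 to 0.40. Genes are not independent, so these r values describe the libraries.

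The genes with the largest log2 fold changes among those higher in replicate 1 included signalling and immediate early genes. Values of 5 libraries are given in the order ABTr1, ABTr2, ABTr3, ABTr4 and PEO1. FOSB, an immediate early AP-1 subunit (hg19 chr19:45971253-45978437), had 23.2, 114, 76.8, 0.925 and 145 CPM in replicate 1, against 0.8, 0.725, 1.03, 0.523 and 9.63 CPM in replicate 2 (log2 fold change 4.88 ± 0.70 SE, adjusted p = 0.0014). The FOSB pairs of ABTr1, ABTr2, ABTr3 and PEO1 lay far apart, while both ABTr4 libraries were near 1 CPM. HES1, a repressor that Notch signalling induces, had 13.2, 187, 158, 3.74 and 187 CPM in replicate 1, against 2.49, 4.4, 4.4, 2.71 and 29.8 CPM in replicate 2 (log2 fold change 3.27 ± 0.66 SE, adjusted p = 0.0057). DUSP5, a nuclear phosphatase of ERK, had 75.7, 239, 266, 105 and 289 CPM in replicate 1, against 22.9, 16.1, 65.7, 30 and 43.2 CPM in replicate 2 (log2 fold change 2.42 ± 0.29 SE, adjusted p = 8.9e-04), and no replicate 2 library reached the lowest replicate 1 library. PTGER4, a receptor of prostaglandin E2, had 5.2, 33.1, 17.5, 2.26 and 20.9 CPM in replicate 1, against 1.75, 1.79, 2.39, 1.32 and 1.2 CPM in replicate 2 (log2 fold change 2.73 ± 0.49 SE, adjusted p = 0.0034). TEX15, a gene known from germ cells, stood between 4.63 and 6.93 CPM in replicate 1 and between 0.773 and 1.3 CPM in replicate 2 (log2 fold change 2.40 ± 0.22 SE, adjusted p = 4.7e-04). The other genes that the naming rule took were NOG (2.40 ± 0.37), MFSD2A (2.38 ± 0.35), CR2 (2.28 ± 0.26), NFATC2 (2.24 ± 0.61), GABBR2 (2.24 ± 0.29), GPR3 (2.23 ± 0.34) and LPL (2.17 ± 0.26), each a log2 fold change with its SE. Of these, NFATC2 lost its call without the ABTr3 pair, where its adjusted p was 0.103 and its log2 fold change 1.78.

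The genes with the largest log2 fold changes among those higher in replicate 2 included complement, interferon-induced and antimicrobial products. C3, the central complement component (hg19 chr19:6677846-6720662), had 3.56, 46.8, 11, 11.9 and 89.9 CPM in replicate 1, against 294, 497, 266, 297 and 549 CPM in replicate 2 (log2 fold change -4.27 ± 0.47 SE, adjusted p = 7.0e-04), with no overlap between the numbers. C1S, a protease that starts the classical complement pathway, had 7.01, 9.74, 3.37, 1.44 and 7.86 CPM in replicate 1, against 79.6, 118, 37.2, 41.5 and 63.8 CPM in replicate 2 (log2 fold change -3.65 ± 0.24 SE, adjusted p = 1.7e-04). TXNIP, an inhibitor of thioredoxin and of glucose uptake (hg19 chr1:145438438-145442628), had 35.1, 26.6, 23.4, 24.9 and 17.1 CPM in replicate 1, against 588, 401, 89.1, 266 and 298 CPM in replicate 2 (log2 fold change -3.51 ± 0.31 SE, adjusted p = 4.4e-04). GBP2, an interferon-induced GTPase (hg19 chr1:89571816-89591842), had 8.88, 3.51, 1.74, 2.28 and 2.45 CPM in replicate 1, against 64.1, 39.3, 12.8, 22.3 and 23.2 CPM in replicate 2 (log2 fold change -3.15 ± 0.16 SE, adjusted p = 3.3e-05). Its 5 pair differences ran from -3.48 to -2.85. SLPI, a secreted protease inhibitor, had 7.69, 21.2, 16.4, 1.7 and 36 CPM in replicate 1, against 84.5, 161, 162, 60.7 and 231 CPM in replicate 2 (log2 fold change -3.44 ± 0.31 SE, adjusted p = 4.4e-04). UBD, a ubiquitin-like modifier induced by interferon gamma and TNF, had 0.849, 0.0727, 0.0766, 0 and 0 CPM in replicate 1, against 26.1, 30.8, 0.975, 9.7 and 0.387 CPM in replicate 2 (log2 fold change -6.38 ± 0.73 SE, adjusted p = 8.2e-04). UBD is listed on several copies of the HLA region and IFITM2 (log2 fold change -3.87 ± 0.52 SE, adjusted p = 0.0012) has near-identical relatives, so both counts are uncertain. The others were RARRES1 (-3.65 ± 0.44), LINC01133 (-3.62 ± 0.39), ISLR (-3.48 ± 0.58), CA8 (-3.23 ± 0.42) and NUPR1 (-3.02 ± 0.33).

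**Figure D1:**
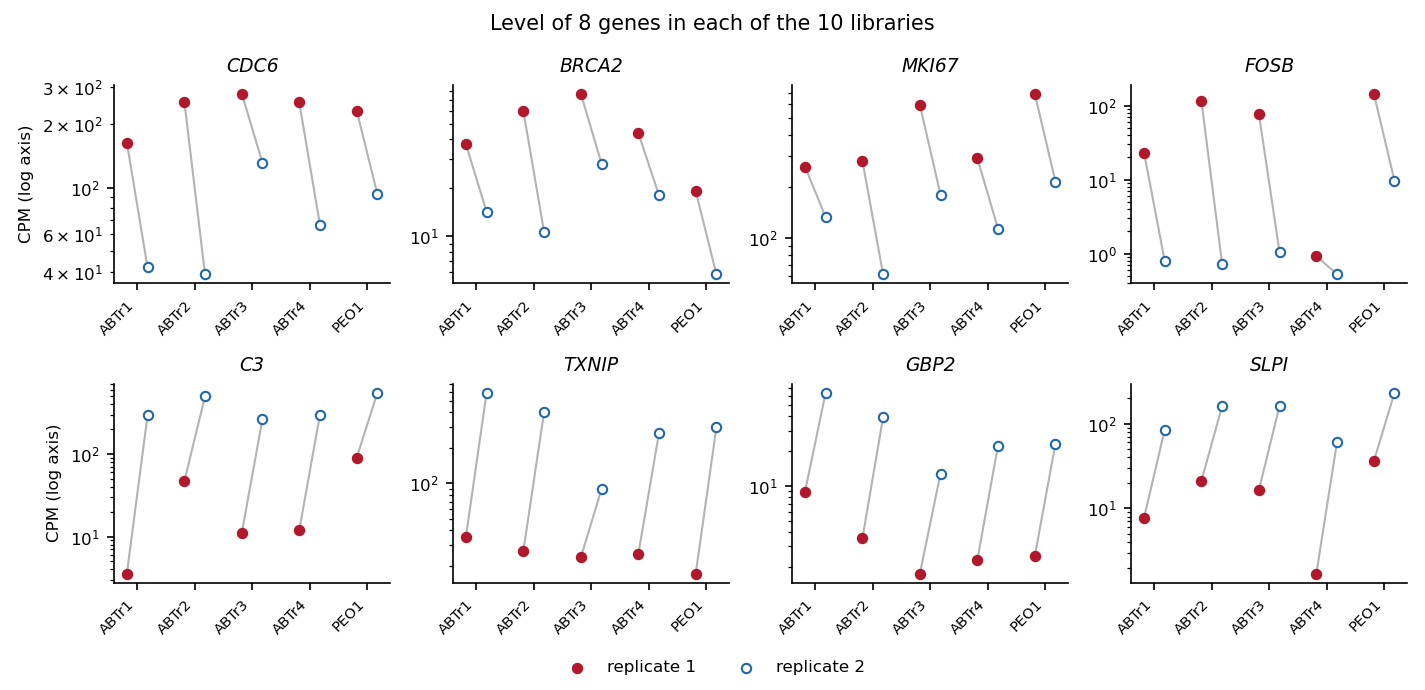
Level of 8 genes in CPM (log axis, a different range in each panel) in the 10 libraries, with replicate 1 as filled and replicate 2 as open points, joined within a group. CDC6, BRCA2, MKI67 and FOSB are higher in replicate 1 in 5 of 5 pairs, and C3, TXNIP, GBP2 and SLPI are higher in replicate 2 in 5 of 5 pairs.

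Genes of DNA replication were higher in replicate 1 almost as a whole. Of 40 tested members 38 were higher in replicate 1 and 0 in replicate 2, against 14.8% and 15.5% of all genes, and POLD2 and PRIM2 were not called. The counts of the lists that follow are read against the same 2 shares. The median log2 fold change was 0.95, against -0.01 over all tested genes, and the pair medians were 1.17, 1.45, 0.31, 0.90 and 0.92 in the order above, so the ABTr3 pair lay lowest. CDC6, which loads the MCM helicase at origins (hg19 chr17:38444146-38459413), had 163, 255, 279, 254 and 231 CPM in replicate 1, against 41.9, 38.8, 131, 66.7 and 93.2 CPM in replicate 2 (log2 fold change 1.80 ± 0.21 SE, adjusted p = 8.9e-04). GINS4, a subunit of the moving helicase, had 50.5, 83.1, 94.3, 109 and 89.3 CPM in replicate 1, against 18.6, 17.6, 52.7, 37.1 and 25.9 CPM in replicate 2 (log2 fold change 1.57 ± 0.18 SE, adjusted p = 8.6e-04). POLE, the catalytic subunit of the leading strand polymerase, had 93.4, 124, 159.6, 134 and 119 CPM in replicate 1, against 48.3, 45.4, 80.1, 79.1 and 54.9 CPM in replicate 2 (log2 fold change 1.05 ± 0.13 SE, adjusted p = 8.9e-04). POLA1, which primes new strands, had 90.1, 103, 109, 92.6 and 104 CPM in replicate 1, against 32.9, 27.2, 64.7, 34.8 and 49.5 CPM in replicate 2 (log2 fold change 1.32 ± 0.17 SE, adjusted p = 9.7e-04). In CDC6, GINS4, POLE and POLA1 alike every replicate 1 library lay above its own partner, and for CDC6, POLE and POLA1 above every replicate 2 library.

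Of 35 mitosis genes 24 were higher in replicate 1 (68.6%, against 14.8% of all genes) and 0 in replicate 2. The median was 0.70. MKI67, the proliferation marker Ki-67, had 261, 282, 596, 292 and 694 CPM in replicate 1, against 133, 61.7, 179, 114 and 214 CPM in replicate 2 (log2 fold change 1.59 ± 0.17 SE, adjusted p = 6.6e-04). CENPF, a kinetochore protein, had 216, 273, 318, 270.1 and 341 CPM in replicate 1, against 109, 73, 129, 123 and 115 CPM in replicate 2 (log2 fold change 1.38 ± 0.15 SE, adjusted p = 7.0e-04). ASPM, a spindle pole protein (1.12 ± 0.13), and CENPE, a kinetochore motor (1.46 ± 0.18), were also higher in 5 of 5 pairs. The mitosis medians by pair were 0.61, 1.01, 0.08, 0.57 and 1.22, lowest again in ABTr3 and highest in PEO1.

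Genes of homologous recombination, the pathway in which PEO1 is deficient, moved with the replicate number in the same direction. Of 25 tested members 16 were higher in replicate 1 (64.0%, against 14.8% of all genes) and 1, RAD52, in replicate 2. The median was 0.79. BRCA2 (hg19 chr13:32889617-32973809) had 37.2, 59.8, 76.9, 43.8 and 19 CPM in replicate 1, against 14.2, 10.7, 28.3, 18 and 5.8 CPM in replicate 2 (log2 fold change 1.65 ± 0.18 SE, adjusted p = 7.4e-04). BRCA1, its partner in repair, had 157, 149.7, 152, 185 and 194 CPM in replicate 1, against 58.8, 47, 109, 83.1 and 117 CPM in replicate 2 (log2 fold change 1.09 ± 0.17 SE, adjusted p = 0.0021). The replicate 1 level of BRCA2 exceeded its partner's in each group, and the PEO1 libraries were the lowest of their number. BLM, a helicase (1.38 ± 0.18), XRCC2, a protein of strand exchange (1.32 ± 0.18), and EXO1, a nuclease that resects ends (1.42 ± 0.20), were higher in 5 of 5 pairs. PARP1, the target of veliparib, had 171, 207, 208, 268 and 161 CPM in replicate 1, against 145, 101, 159, 120.3 and 76 CPM in replicate 2 (log2 fold change 0.78 ± 0.16 SE, adjusted p = 0.006).

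Immediate early genes are switched on by serum or growth factors within minutes to hours. Of 25 members 11 were higher in replicate 1 (44.0%, against 14.8% of all genes) and 1, JUNB, in replicate 2. The median was 0.82. The replicate 1 count was 6 without the ABTr2 pair and 17 without the PEO1 pair. DUSP6, a cytoplasmic ERK phosphatase, had 108, 94.6, 93, 51.8 and 71.7 CPM in replicate 1, against 35.4, 18.1, 39.8, 23.7 and 23.6 CPM in replicate 2 (log2 fold change 1.58 ± 0.18 SE, adjusted p = 8.2e-04). KLF6, a zinc finger factor, had 175, 323, 445, 131 and 255 CPM in replicate 1, against 73.4, 86, 162, 69.8 and 138 CPM in replicate 2 (log2 fold change 1.28 ± 0.16 SE, adjusted p = 9.6e-04). FOS and EGR1 did not follow FOSB. FOS had 163, 29.6, 17, 16 and 78.6 CPM in replicate 1, against 10.1, 19.4, 19.1, 14.5 and 149.8 CPM in replicate 2 (log2 fold change 0.55 ± 0.57 SE, adjusted p = 0.49), and its only wide pair with replicate 1 higher was that of ABTr1. EGR1 had 125, 22.5, 14.1, 3.03 and 119 CPM in replicate 1, against 8.8, 19.4, 6.23, 8.5 and 249 CPM in replicate 2 (log2 fold change 0.41 ± 0.65 SE, adjusted p = 0.67). Without the ABTr1 pair the log2 fold change was -0.09 for FOS and -0.29 for EGR1.

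Interferon response genes were mostly higher in replicate 2. Of 40 tested members 21 were higher in replicate 2 (52.5%, against 15.5% of all genes) and 1, OAS3, in replicate 1. The median was -0.65, with pair medians between -0.71 in ABTr2 and -0.45 in PEO1. IRF9, the DNA-binding subunit of the interferon-activated complex, had 18.8, 12.8, 7.01, 12 and 8.53 CPM in replicate 1, against 50, 42.1, 23, 41.7 and 28.7 CPM in replicate 2 (log2 fold change -1.68 ± 0.13 SE, adjusted p = 3.3e-04), with no overlap between the numbers. GBP1, a GTPase, had 9.48, 23.6, 7.98, 10.2 and 28.3 CPM in replicate 1, against 37.7, 46.9, 19.7, 27.9 and 52.2 CPM in replicate 2 (log2 fold change -1.32 ± 0.17 SE, adjusted p = 0.0012). BST2, which tethers virus particles, had 0.509, 0.0727, 0.0766, 0.043 and 0.0496 CPM in replicate 1, against 5.2, 1.98, 0.295, 1.6 and 0.58 CPM in replicate 2 (log2 fold change -3.72 ± 0.47 SE, adjusted p = 0.001). TRIM22, an antiviral ubiquitin ligase, had 0.735, 0.164, 0, 0.0645 and 0.57 CPM in replicate 1, against 5.17, 3.62, 0.768, 2.22 and 5.07 CPM in replicate 2 (log2 fold change -3.87 ± 0.47 SE, adjusted p = 8.9e-04). BST2 and TRIM22 were under 1 CPM in every replicate 1 library, so their fold changes rest on few reads there. Of 18 interferon genes higher in replicate 2 with a promoter window, 10 held the response element, against 19 of 31 in the whole list (61.3%). The 1 member higher in replicate 1 held it too. The element was therefore no more frequent among the members higher in replicate 2 than in the list.

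Genes of growth arrest and FOXO factors were higher in replicate 2 in 15 of 26 cases (57.7%) and in replicate 1 in 0. The share of all genes higher in replicate 2 was 15.5%. The list median was -0.93. HBP1, a repressor of cell cycle genes, had 45.5, 45.5, 43.8, 17.9 and 40.3 CPM in replicate 1, against 97.9, 129, 81.7, 58.8 and 111 CPM in replicate 2 (log2 fold change -1.33 ± 0.14 SE, adjusted p = 6.8e-04). CCNG2, a cyclin of resting cells, had 30.6, 28.9, 36.9, 13.9 and 50.7 CPM in replicate 1, against 87.1, 89, 65.7, 60.4 and 162 CPM in replicate 2 (log2 fold change -1.55 ± 0.17 SE, adjusted p = 7.4e-04). TP53INP1, a gene of autophagy (-1.96 ± 0.24), also showed no overlap. FOXO1 and FOXO3 themselves were not called.

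Lysosomal genes were higher in replicate 2 in 14 of 24 cases (58.3%, against 15.5% of all genes). In replicate 1 the count was 1, GLA (0.74 ± 0.13), and the median was -0.39. PSAP, the precursor of the saposins, had 1238, 850.0, 647, 747 and 403 CPM in replicate 1, against 1978, 1741, 1222, 1179.7 and 923 CPM in replicate 2 (log2 fold change -0.90 ± 0.13 SE, adjusted p = 0.0014). NPC2, a cholesterol carrier of the lysosome (-1.24 ± 0.18), and GRN, progranulin (-0.78 ± 0.14), were also higher in replicate 2. The lysosome count was 7 without the ABTr2 pair and 8 without the ABTr3 pair or the PEO1 pair.

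Secreted and surface products of epithelium had 10 of 19 members higher in replicate 2 (52.6%, against 15.5% of all genes) and 0 in replicate 1. The median was -1.47, and -0.70 without the PEO1 pair. WFDC2, the ovarian tumour marker HE4, had 34.1, 5.6, 5.8, 2.93 and 9.52 CPM in replicate 1, against 89.8, 70.6, 18.9, 22.4 and 37.9 CPM in replicate 2 (log2 fold change -2.32 ± 0.31 SE, adjusted p = 0.0012). LCN2, an iron-binding lipocalin, had 1.24, 2.18, 0.574, 0.129 and 73.4 CPM in replicate 1, against 5.75, 13.3, 4.52, 5.14 and 550.0 CPM in replicate 2 (log2 fold change -2.97 ± 0.29 SE, adjusted p = 5.6e-04). MSLN, mesothelin (-0.87 ± 0.15), was higher in replicate 2 in 5 of 5 pairs.

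NF-kB and inflammation genes split. Of 23 members 6 were higher in replicate 1 (IL1B, CXCL8, CXCL1, CXCL2, CXCL3 and PTGS2) and 6 in replicate 2 (CCL2, TNFAIP2, ICAM1, LCN2, SAA1 and SAA2). Each count was 26.1% of the list, against 14.8% and 15.5% of all genes. TNFAIP2 had 209.7, 134, 101, 75.7 and 135 CPM in replicate 1, against 449.9, 639.8, 273, 333 and 624 CPM in replicate 2 (log2 fold change -1.83 ± 0.19 SE, adjusted p = 6.0e-04), and ICAM1, an adhesion molecule, -1.25 ± 0.16. Cholesterol synthesis had 9 of 23 members higher in replicate 2 (39.1%) and 0 in replicate 1. Among the 9 were TM7SF2, a sterol reductase (-1.46 ± 0.16), and MSMO1, a sterol demethylase (-1.28 ± 0.16). The list median was -0.26, and -0.14 without the PEO1 pair. Its pair medians were -0.42, -0.07, -0.31, 0.08 and -0.61, so the list as a whole was not lower in replicate 1 in the ABTr4 pair. Collagen and matrix genes had 12 of 28 members higher in replicate 1 (42.9%), such as FBN2 (1.42 ± 0.14), COL4A2 (0.89 ± 0.12) and LAMA1 (1.08 ± 0.14). The count higher in replicate 2 was 6 (21.4%), and 2 without the ABTr2 pair.

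**Figure D2:**
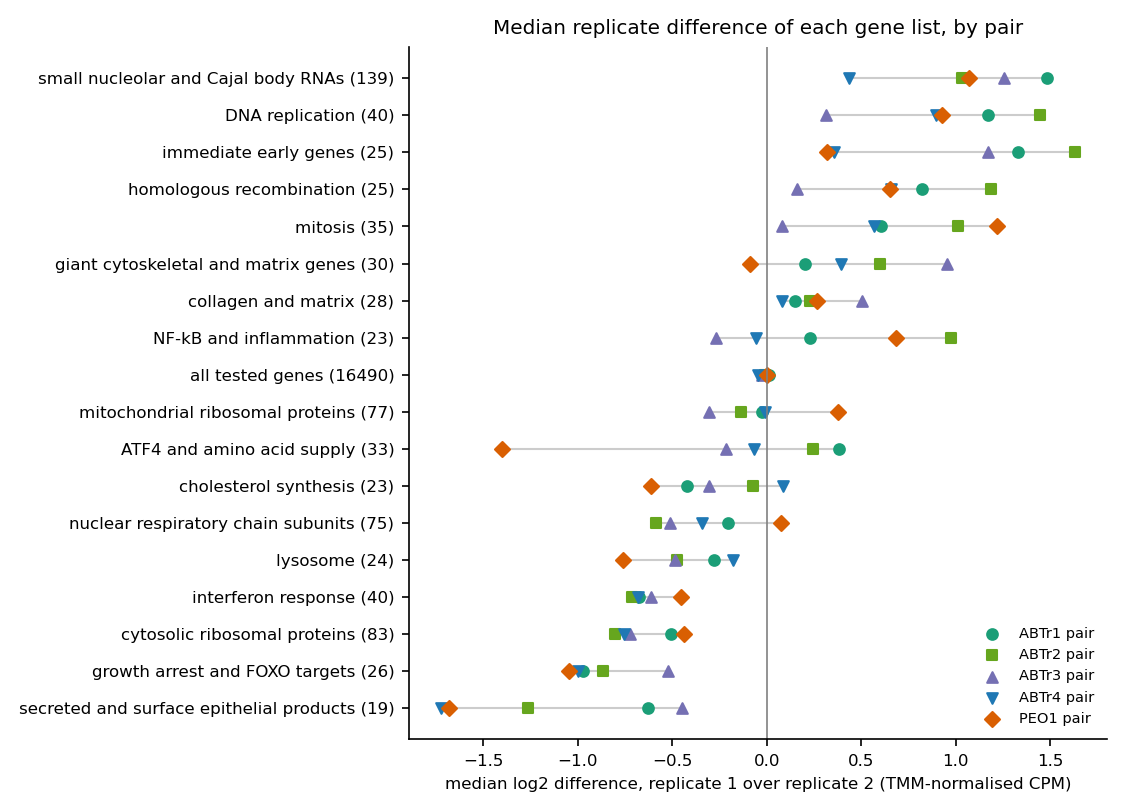
Median log2 difference (replicate 1 over replicate 2, TMM-normalised CPM) of 18 gene sets in each of the 5 pairs, with the number of tested genes in brackets. DNA replication runs from 0.31 in the ABTr3 pair to 1.45 in the ABTr2 pair, and the PEO1 pair alone stands far to the left for ATF4 and amino acid supply, at -1.40.

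Cytosolic ribosomal protein genes, which encode the ribosome's protein part and have short transcripts, were higher in replicate 2 in 71 of 83 cases and in replicate 1 in 1 case, RPL7L1. Their median log2 fold change was -0.66 and their share of all counts was 3.69%, 4.1%, 3.77%, 4.68% and 5.43% in replicate 1 against 5.05%, 7.2%, 6.03%, 8.27% and 6.98% in replicate 2. RPL34 had 122, 206, 130.4, 203 and 238 CPM in replicate 1, against 209, 454, 263, 428 and 453 CPM in replicate 2 (log2 fold change -0.99 ± 0.11 SE, adjusted p = 7.9e-04). RPL37 had 339.8, 696, 339, 692 and 617 CPM in replicate 1, against 603, 1378, 674, 1513 and 1105 CPM in replicate 2 (log2 fold change -0.95 ± 0.11 SE, adjusted p = 8.6e-04). RPS27 (-0.89 ± 0.11) and, among the shortest abundant transcripts, RPS28 (-0.78 ± 0.12) and RPL38 (-0.63 ± 0.11) were higher in replicate 2 in 5 of 5 pairs. Ribosomal protein genes have many processed pseudogenes, so single counts are uncertain. After a smooth trend on gene length was removed, 55 of 83 were higher in replicate 2 and the median was -0.40.

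Nuclear genes of the respiratory chain were higher in replicate 2 in 29 of 75 cases and in replicate 1 in 0, with a median of -0.32. In the PEO1 pair the median was 0.07. ATP5G2, a subunit of ATP synthase, had 67.8, 68.7, 73.4, 84 and 73.1 CPM in replicate 1, against 106, 136, 121, 126 and 133 CPM in replicate 2 (log2 fold change -0.76 ± 0.11 SE, adjusted p = 0.0016), and the complex I subunits NDUFA11 (-0.73 ± 0.11) and NDUFA13 (-0.76 ± 0.14) and the complex II subunit SDHC (-0.66 ± 0.12) were lower in replicate 1 too. The count was 11 without the ABTr2 pair, 12 without the ABTr4 pair and 15 without the ABTr3 pair. After the length trend was removed 5 were higher in replicate 1 and 14 in replicate 2, with a median of -0.12. Of 77 mitochondrial ribosomal proteins 11 were higher in replicate 1 (14.3%) and 8 in replicate 2 (10.4%), near or below the 14.8% and 15.5% of all genes. These counts were 1 and 2 without the ABTr2 pair, 8 and 4 without the ABTr3 pair, 1 and 3 without the ABTr4 pair, and 18 and 4 after the length trend was removed (median 0.13, against -0.02 before).

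Gene length and replicate difference were related in a way that differed by length class. Exon length is that of the authors' annotation, and each slope is the change of the log2 difference per doubling of length across genes. Over all tested genes the slopes were -0.016, 0.093, 0.080 and 0.088 in the 4 clone pairs and -0.015 in the PEO1 pair, with a mean of 0.046 (SD 0.057, n = 5 pairs, 2-sided exact sign-flip p = 0.25, smallest possible 0.0625). For the 16035 genes of at least 500 bases listed on 1 chromosome the slopes were 0.046, 0.182, 0.180 and 0.152 in the clone pairs and 0.046 in the PEO1 pair, all 5 above 0 (mean 0.121, exact p = 0.0625, the smallest that 5 pairs allow). Median log2 fold changes were -0.33 for 828 genes of 500 to 1000 bases, -0.15 for 3103 genes up to 2000, -0.004 for 6450 genes up to 4000, 0.07 for 4658 genes up to 8000, 0.14 for 859 genes up to 12000 and 0.17 for 302 longer genes. Among the genes of 500 to 1000 bases 3.86% were higher in replicate 1 and 27.1% in replicate 2, and among those over 12000 bases 22.8% and 9.27%.

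The 290 genes of up to 500 bases broke this order with a median of 0.62. They held 2 unlike classes. Small nucleolar and Cajal body RNAs, guides of RNA modification cut from introns, had a median of 1.14 over 138 genes and 60 higher in replicate 1 with 0 higher in replicate 2. The 79 short genes that were no small nucleolar RNA, histone or microRNA had a median of -0.63, with 2 higher in replicate 1 and 33 in replicate 2. SNORD17 had 2.74, 4.22, 4.5, 3.96 and 3.37 CPM in replicate 1, against 0.8, 1.26, 2.42, 1.11 and 0.851 CPM in replicate 2 (log2 fold change 1.63 ± 0.26 SE, adjusted p = 0.002). SNORD110 (1.64 ± 0.27), SNORD26 (1.97 ± 0.35) and SNORD27 (1.83 ± 0.34) were also higher in replicate 1 in 5 of 5 pairs. Small nucleolar RNAs made up 0.006% to 0.021% of counts, carry no poly(A) tail when mature and lie inside host genes, so reads of host transcripts and of the small RNA cannot be told apart here. Over the whole list of 139, 60 were higher in replicate 1, against 27 without the ABTr1 pair, 27 without the ABTr2 pair and 31 without the ABTr3 pair, and after the length trend was removed 15 were higher in replicate 1 and 2 in replicate 2. These RNAs were 138 of the 290 genes of up to 500 bases, so the trend there was partly fitted to them. Length and class therefore cannot be told apart by that count.

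Lists of long transcripts had positive medians over the 5 pairs. The list of giant cytoskeletal and matrix genes also held giant genes of other kinds, such as PRKDC and MDN1. Of its 30 members 12 were higher in replicate 1 and 0 in replicate 2. The list median was 0.43, with pair medians of 0.20, 0.60, 0.95, 0.39 and -0.09. PRKDC, the DNA-dependent protein kinase, had 701, 694, 1149, 705 and 1105 CPM in replicate 1, against 385, 206, 443, 266 and 685 CPM in replicate 2 (log2 fold change 1.22 ± 0.16 SE, adjusted p = 0.0012). PLEC, plectin, had 587, 553, 773, 368 and 639 CPM in replicate 1, against 317, 264, 315, 255 and 238 CPM in replicate 2 (log2 fold change 1.04 ± 0.15 SE, adjusted p = 0.0014). MDN1, a ribosome assembly ATPase (1.26 ± 0.23), and DYNC1H1, the dynein heavy chain (0.86 ± 0.16), followed. Their count was 6 without the ABTr2 pair or the ABTr3 pair, 7 without the ABTr4 pair and 17 without the PEO1 pair, and after the length trend was removed 8 were higher in replicate 1 and 3 in replicate 2, with a median of 0.24. Chromatin regulators with long transcripts had 9 of 29 higher in replicate 1, among them CHD4 (0.79 ± 0.15) and CHD7 (0.75 ± 0.15), and 2 higher in replicate 2. Their median was 0.35 and the pair medians were -0.05, 0.50, 0.58, 0.36 and 0.13. The 9 became 2 without the ABTr2, the ABTr3 or the ABTr4 pair and 14 without the ABTr1 pair. Over all genes the 2441 higher in replicate 1 became 1230, 1955 or 1472 without the ABTr2, ABTr3 or ABTr4 pair. That number was 2010 without the ABTr1 pair. After the length trend was removed 5 of the 29 were higher in replicate 1 and 3 in replicate 2, with a median of 0.18. BRD2 (log2 fold change 0.60 ± 0.14 SE, adjusted p = 0.0098) and PRRC2A (log2 fold change 0.43 ± 0.14 SE, adjusted p = 0.038), long in the annotation because copies of the HLA region are summed, lost their calls when the length trend was removed (adjusted p = 0.0677 and 0.503) and without the ABTr2 pair (0.0519 and 0.153), and PRRC2A also without ABTr3 (0.0924) or ABTr4 (0.101). The counts of both are uncertain for the same reason. Also among the 4 longest abundant genes were PPP1R18 (log2 fold change -0.18 ± 0.13 SE, adjusted p = 0.31) and KCNQ1OT1 (log2 fold change 0.48 ± 0.25 SE, adjusted p = 0.18). Neither was called. The nuclear RNA MALAT1 had 584, 479, 1748, 274 and 502 CPM in replicate 1, against 429, 524, 253, 511 and 879.7 CPM in replicate 2 and was not called (log2 fold change 0.19 ± 0.45 SE, adjusted p = 0.78). Its ABTr3 pair alone stood far apart, and without that pair the log2 fold change was -0.35. NEAT1 was not called either (log2 fold change -0.47 ± 0.37 SE, adjusted p = 0.35).

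With the length trend removed, 39 of 40 DNA replication genes and 25 of 35 mitosis genes were higher in replicate 1, and 20 of 40 interferon genes and 16 of 26 growth arrest genes were higher in replicate 2. Over all genes 4898 were then called, 4394 of them among the 4999. Replication-dependent histones are mostly short genes of the S phase whose main mRNA has no poly(A) tail. Which mRNA forms the reads came from was not tested. These genes made up 0.00349% to 0.00617% of counts in replicate 1 and 0.00454% to 0.00719% in replicate 2. That share was lower in replicate 1 in 5 of 5 pairs. Of 40 tested members 3 were higher in replicate 1 (7.5%) and 2 in replicate 2 (5.0%), with a median of 0.37. Both shares were below the 14.8% and 15.5% of all genes. The replicate 1 count was 0 without the ABTr2 pair, 1 without ABTr3 or ABTr4, and 8 after the length trend was removed (median 0.62). The 2 members higher in replicate 2 were HIST1H2AC (log2 fold change -2.77 ± 0.29 SE, adjusted p = 6.2e-04) and HIST1H2BD (log2 fold change -1.34 ± 0.23 SE, adjusted p = 0.0029). HIST1H1D (log2 fold change 1.32 ± 0.32 SE, adjusted p = 0.013) and HIST1H2BF (log2 fold change 2.46 ± 0.65 SE, adjusted p = 0.019) were higher in replicate 1 and lost their calls without the ABTr2 pair (adjusted p = 0.0525 and 0.051), HIST1H2BF also without ABTr3 (0.0507) or ABTr4 (0.0632). On GC content the slope per 10% was -0.079, -0.061, -0.002 and -0.122 in the clone pairs and 0.058 in the PEO1 pair (mean -0.041, exact p = 0.1875), over the 91.7% of genes with a GENCODE v29 transcript.

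**Figure D3:**
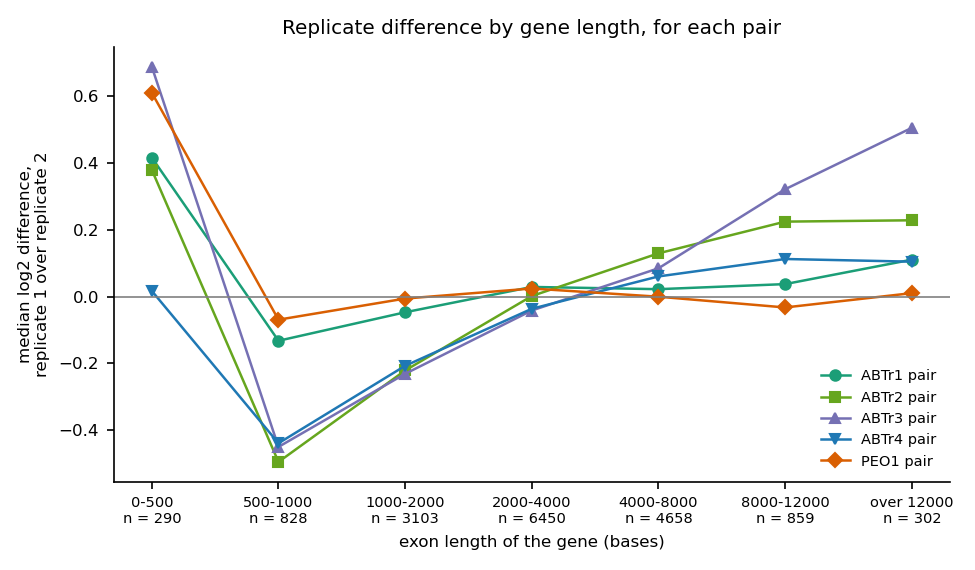
Median log2 difference (replicate 1 over replicate 2) of genes in 7 classes of exon length, 1 line for each pair, with the number of genes under each class. From 500 bases upward the lines of ABTr2, ABTr3 and ABTr4 rise across 0, ABTr1 rises little and PEO1 stays between -0.07 and 0.02.

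The parental pair differed from the clone pairs in its own set of genes. The difference tested is the mean clone log2 difference minus the PEO1 log2 difference. At an adjusted p under 0.05 the test called 447 of 16490 genes (2.71%), 187 positive (1.13%) and 260 negative (1.58%). Its spread comes from the 4 clone pairs alone (3 residual degrees of freedom), and the 1 PEO1 pair is assumed to vary as they do. In 305 of the 447 the PEO1 pair and the mean clone pair had opposite signs, in 134 the sign was the same with the larger size in PEO1, and in 8 the clones were larger. Each clone pair set against the other 4 called 0 genes by edgeR. At an unadjusted p under 0.05 they had 539, 405, 687 and 310 genes, where the PEO1 pair had 2530. In the clone tests the spread came from the other 4 pairs, the PEO1 pair among them. The clone counts and the PEO1 count therefore do not compare like with like. The count of 447 was 298 without the ABTr4 pair and 915 without the ABTr2 pair.

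**Figure D4:**
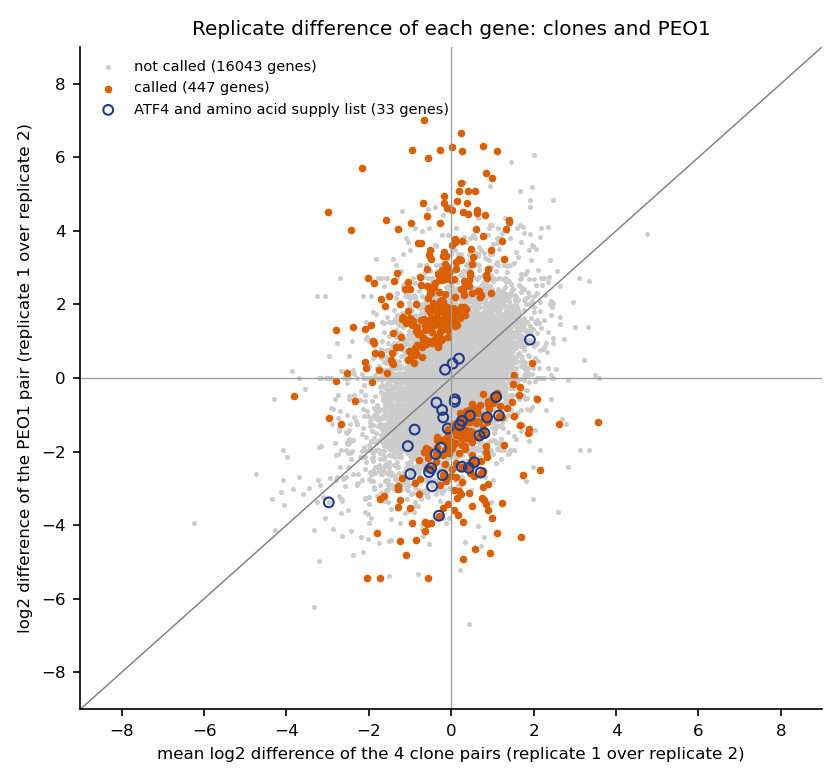
Mean log2 difference of the 4 clone pairs (horizontal) and log2 difference of the PEO1 pair (vertical) for 16490 genes, replicate 1 over replicate 2, with the 447 called genes in orange and the 33 genes of the ATF4 and amino acid supply list ringed. The diagonal marks equal differences, and most ringed genes lie below it.

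Genes of amino acid supply under ATF4 were, of the lists followed, the one with the most such genes. Of 33 tested members 17 had a positive difference and 0 a negative one, against 1.13% and 1.58% of all genes. The median log2 difference was 0.05 over the clones and -1.40 in PEO1. STC2, a secreted glycoprotein of stress (hg19 chr5:172741726-172756506), had 44.8 to 152 CPM in replicate 1 against 40.6 to 106 CPM in replicate 2 of the clones and 108 CPM in parental replicate 1 against 644 CPM in parental replicate 2 (difference 3.29 ± 0.39 SE, adjusted p = 0.0016). CTH, which makes cysteine (hg19 chr1:70876901-70905534), had 3.22 to 5.13 CPM in replicate 1 against 3.45 to 7.8 CPM in replicate 2 of the clones and 3.25 CPM in parental replicate 1 against 43.8 CPM in parental replicate 2 (difference 3.45 ± 0.42 SE, adjusted p = 0.0017). SLC7A11, the cystine importer, had 18 to 41.1 CPM in replicate 1 against 16.2 to 29.5 CPM in replicate 2 of the clones and 38.1 CPM in parental replicate 1 against 208 CPM in parental replicate 2 (difference 2.87 ± 0.45 SE, adjusted p = 0.0058). For STC2, CTH and SLC7A11 parental replicate 2 was the highest of the 10 libraries. SLC7A5, a carrier of large neutral amino acids, had 247 to 383 CPM in replicate 1 against 120.2 to 169 CPM in replicate 2 of the clones and 998 CPM in parental replicate 1 against 2024 CPM in parental replicate 2 (difference 2.18 ± 0.30 SE, adjusted p = 0.0026), with the clone pairs and the parental pair on opposite sides of 0. SLC1A4, a carrier of serine and alanine (difference 2.67 ± 0.36), and SESN2, a leucine sensor (difference 2.24 ± 0.45), also differed. ASNS, asparagine synthetase, had 20 to 62.1 CPM in replicate 1 against 34.2 to 104 CPM in replicate 2 of the clones and 82.6 CPM in parental replicate 1 against 486 CPM in parental replicate 2, and missed the threshold (difference 2.01 ± 0.51 SE, adjusted p = 0.057). ATF4 itself was not called. The count of 17 was 11 without the ABTr4 pair and 21 without the ABTr2 pair.

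**Figure D5:**
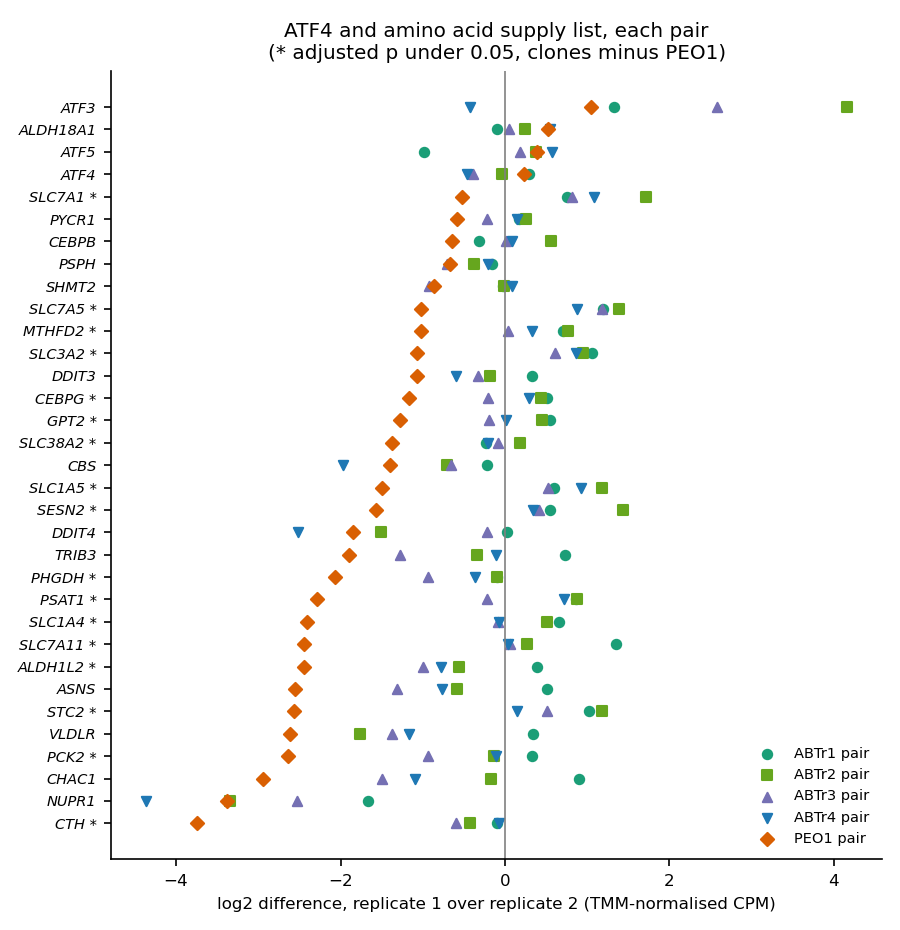
Log2 difference (replicate 1 over replicate 2) of the 33 genes of the ATF4 and amino acid supply list in each of the 5 pairs, ordered by the PEO1 pair. For the 17 genes with an asterisk the PEO1 diamond lies left of all 4 clone symbols.

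Genes of several kinds, surface, matrix and secreted products among them, were higher in parental replicate 2. TCHH, trichohyalin, had 3.99 to 8.1 CPM in replicate 1 against 0.87 to 2.4 CPM in replicate 2 of the clones and 1.61 CPM in parental replicate 1 against 32.6 CPM in parental replicate 2 (difference 6.02 ± 0.56 SE, adjusted p = 6.4e-04). SLC22A3, an organic cation transporter with 1 to 33 reads in the clone libraries, had 0.129 to 0.6 CPM in replicate 1 against 0.0308 to 0.0966 CPM in replicate 2 of the clones and 66.7 CPM in parental replicate 1 against 417 CPM in parental replicate 2 (difference 4.79 ± 0.46 SE, adjusted p = 6.4e-04). IGFBP5, which binds insulin-like growth factors, had 1.27 to 14.8 CPM in replicate 1 against 3.94 to 35.2 CPM in replicate 2 of the clones and 333 CPM in parental replicate 1 against 9277 CPM in parental replicate 2 (difference 3.72 ± 0.40 SE, adjusted p = 8.8e-04). IGFBP5 was higher in replicate 2 in 5 of 5 pairs (log2 fold change -1.76 ± 0.53 SE, adjusted p = 0.032 over all pairs), with the widest gap in PEO1, and that overall call was lost without the ABTr1 pair (adjusted p = 0.0668), the ABTr2 pair (0.0522) or the ABTr4 pair (0.0756). CEACAM6, a surface glycoprotein of epithelial tumours, had 0 to 0.255 CPM in replicate 1 against 0 to 0.185 CPM in replicate 2 of the clones and 3.99 CPM in parental replicate 1 against 122 CPM in parental replicate 2 (difference 5.21 ± 0.91 SE, adjusted p = 0.01). The clone libraries held 0 to 9 CEACAM6 reads, so the clone side of the difference rests on almost none, and the call was lost without the ABTr1 pair (adjusted p = 0.119) and under DESeq2 (0.305).

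The same held for other genes nearly silent in the clones. SCNN1B, a sodium channel subunit (difference 5.92 ± 0.99), had 0 to 26 clone reads, NRTN, neurturin (difference 4.75 ± 0.79), 0 to 9 and FXYD3, a regulator of the sodium pump (difference 4.83 ± 0.98), 0 to 6, and FXYD3 was lost without ABTr1 (adjusted p = 0.0796) or ABTr3 (0.107). STX19 (difference 4.40 ± 1.07, 0 to 29 clone reads) was lost without ABTr1 (0.0788), ABTr3 (0.137) or ABTr4 (0.0659). NPNT, nephronectin (difference 4.25 ± 0.88), was lost without ABTr1 (0.0729), and SPRY1, an ERK inhibitor (difference 4.77 ± 1.05), without ABTr1 (0.0654) or ABTr3 (0.0738). The potassium channel KCNK15 (difference 4.94 ± 0.83) and the lipid transporter ABCA12 (difference 4.54 ± 0.80) kept their calls whichever clone pair was left out. ADAMTS1, a matrix protease, had 20.4 to 177 CPM in replicate 1 against 2.75 to 19.4 CPM in replicate 2 of the clones and 4.93 CPM in parental replicate 1 against 11.3 CPM in parental replicate 2 (difference 4.66 ± 0.90 SE, adjusted p = 0.017). All 4 clone pairs of ADAMTS1 were higher in replicate 1, and its call was lost without the ABTr3 pair (adjusted p = 0.0575).

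Other genes were higher in parental replicate 1. KRT5, a keratin of basal epithelium (hg19 chr12:52908359-52914243), had 0 to 1.39 CPM in replicate 1 against 0.236 to 4.43 CPM in replicate 2 of the clones and 205 CPM in parental replicate 1 against 8.98 CPM in parental replicate 2 (difference -7.35 ± 0.84 SE, adjusted p = 0.0014). DENND2A, an activator of Rab GTPases, had 94.4 to 117 CPM in replicate 1 against 95.7 to 138 CPM in replicate 2 of the clones and 39.8 CPM in parental replicate 1 against 1.59 CPM in parental replicate 2 (difference -4.75 ± 0.39 SE, adjusted p = 4.9e-04). Parental replicate 2 was the only library with under 30 CPM of DENND2A. HAS3, a hyaluronan synthase, had 17.6 to 44 CPM in replicate 1 against 18.1 to 49.9 CPM in replicate 2 of the clones and 23.6 CPM in parental replicate 1 against 0.851 CPM in parental replicate 2 (difference -4.96 ± 0.74 SE, adjusted p = 0.0041). SLC8A1, a sodium and calcium exchanger, had 197 to 778 reads in the clone libraries, and 334 reads in parental replicate 1 against 2 in parental replicate 2, a ratio of 107 after scaling (95% counting interval 29.4 to 887). CSDC2, an RNA-binding protein, had 19 to 362 reads in the clone libraries, with more CPM in replicate 2 in 4 of 4 clone pairs, and 217 reads in parental replicate 1 against 2 in parental replicate 2, a ratio of 69.5 (19.0 to 578). Intervals cover counting error only.

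ID2, an inhibitor of basic helix-loop-helix factors, had 79 to 154 CPM in replicate 1 against 49.5 to 199 CPM in replicate 2 of the clones and 49 CPM in parental replicate 1 against 2.05 CPM in parental replicate 2 (difference -4.57 ± 0.58 SE, adjusted p = 0.0017). ID3 (difference -2.68 ± 0.41) and AXL, a receptor tyrosine kinase (difference -3.08 ± 0.30), went the same way. The AXL levels were 165 to 229.7 CPM in replicate 1 against 149.6 to 270.3 CPM in replicate 2 of the clones and 186 CPM in parental replicate 1 against 23.2 CPM in parental replicate 2, so that parental replicate 2 stood below all other libraries. PLTP (difference -6.44 ± 0.80), PDE4B (difference -5.19 ± 1.12), IL24 (difference -5.12 ± 0.80), HKDC1 (difference -4.88 ± 0.86), UPK1B (difference -4.67 ± 0.84) and ELFN2 (difference -4.60 ± 0.55) were also among the 12 most negative. PDE4B was lost without ABTr1 (adjusted p = 0.0629) or ABTr3 (0.0898), and CSDC2 (0.0565), PDE4B (0.0668) and HKDC1 (0.104) were lost under limma-voom.

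The immediate early and growth genes also held differences between the clones and PEO1. DUSP1, a phosphatase of MAP kinases, had 74.3 to 115 CPM in replicate 1 against 12.4 to 49.4 CPM in replicate 2 of the clones and 73 CPM in parental replicate 1 against 108 CPM in parental replicate 2 (difference 2.63 ± 0.57 SE, adjusted p = 0.028), higher in replicate 1 in the 4 clone pairs only. CYR61, a matrix protein induced by YAP (difference 2.92 ± 0.61), and CDKN1A, the p21 inhibitor of cyclin-dependent kinases (difference 2.08 ± 0.46), showed the same order, and CYR61 was lost without ABTr1 (adjusted p = 0.0503) or ABTr3 (0.0579) and CDKN1A without ABTr1 (0.0544) or ABTr4 (0.0632). FOSL1, an AP-1 subunit, was higher in replicate 1 in 5 of 5 pairs with the widest gap in PEO1 (483 to 848 CPM in replicate 1 against 126 to 431 CPM in replicate 2 of the clones, and 225 CPM in parental replicate 1 against 11.5 CPM in parental replicate 2, difference -2.87 ± 0.59 SE, adjusted p = 0.023), a call lost without ABTr1 (0.0536) and under DESeq2 (0.0979). Depth moved with the replicate number in every pair, and after thinning FXYD3 (adjusted p = 0.294), STX19 (0.0964), NFKBIZ (0.0533) and LRRN4 (0.0919) lost their calls among the genes followed.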

How the data were processed

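Polyadenylated RNA of 10 libraries was sequenced by the submitters (RNeasy columns, TruSeq RNA kit v2), and the deposited values are counts of reads per gene, which the authors made with TopHat2 2.0.14 on hg19 and featureCounts 1.4.6, per the submitters' processing notes. Whether counting used strand, and how it treated reads that match several places, is not given in the sources used here, so antisense, overlapping and paralogous genes are uncertain. The gene lists, the members named and the tests were chosen with earlier results of these data known.

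Genes passing the expression filter of edgeR 4.0.16 (minimum count 10) were scaled by TMM. Quasi-likelihood tests used group as a block plus replicate number (4 residual degrees of freedom), or the clone minus parental difference (3 degrees of freedom), with Benjamini-Hochberg adjustment over 16490 genes at 0.05. Pair differences used a prior count of 1. The naming rule took the 12 highest and 12 lowest log2 fold changes among called genes with the same sign in 5 of 5 pairs. A mean of at least 5 CPM in the higher replicate number was also needed. For the clone minus parental difference it took the 12 highest and 12 lowest called genes. These needed at least 5 CPM in the higher parental library, with no condition on sign or clone level. It also took up to 4 members of each list by adjusted p, 15 fixed genes and the 4 shortest and 4 longest abundant genes. Single exceptions of a list (such as RAD52, OAS3, JUNB, RPL7L1) were named after their values were seen, and some genes the rule took are not reported here. The replicate number is the subject itself, so same-numbered libraries deviating together (r of 0.26 to 0.71 between pair differences) is a result here, not a correction. Alternatives were DESeq2 1.42.0, limma-voom 3.58.1, no filter, thinning, a length trend, no group block and each pair left out. The test was tried on simulated data. R 4.3.3 and Python 3.11.15 were used.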

Additional observations from a re-analysis of the deposited data

Results flagged for a closer look

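A single pair lay far from the other 4 in 7 of 145 sets of 5 pair differences examined, and chance gives about 1 in 20. The log2 difference of the ABTr1 pair was 4.34 for NOG and -1.41 for IRF9, that of the ABTr3 pair was 0.89 for SNORD17 and 1.88 for KCNQ1OT1, that of the ABTr4 pair was -5.05 for LCN2, and that of the PEO1 pair was -4.80 for IGFBP5 and 3.33 for LRRN4.

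The replicate difference of the clones minus that of parental PEO1 passed the test for 49 of the named genes (edgeR, adjusted p under 0.05). Positive differences in the strongest genes were 6.02 for TCHH, 5.92 for SCNN1B, 5.21 for CEACAM6, 4.94 for KCNK15, 4.83 for FXYD3, 4.79 for SLC22A3, 4.77 for SPRY1, 4.75 for NRTN, 4.66 for ADAMTS1, 4.54 for ABCA12, 4.40 for STX19 and 4.25 for NPNT. Negative ones were -8.20 for CSDC2, -7.35 for KRT5, -6.44 for PLTP, -5.90 for SLC8A1, -5.19 for PDE4B, -5.12 for IL24, -4.96 for HAS3, -4.88 for HKDC1, -4.75 for DENND2A, -4.67 for UPK1B and -4.60 for ELFN2. In the amino acid supply list they were 3.29 for STC2, 3.45 for CTH, 2.67 for SLC1A4, 2.18 for SLC7A5, 2.87 for SLC7A11 and 2.24 for SESN2. Among growth and signalling genes they were 3.72 for IGFBP5, -1.87 for IGFBP6, 2.08 for CDKN1A, -2.87 for FOSL1, 2.92 for CYR61, 2.63 for DUSP1, -3.08 for AXL, 2.24 for NT5E, 3.42 for ANKRD1, -4.57 for ID2, -2.68 for ID3, 2.70 for BAMBI and -1.81 for LTBP2. Among secreted, stress and respiratory genes they were 3.42 for MUC20, -3.23 for S100A9, 3.67 for CLU, 1.51 for XBP1, 1.78 for NFKBIZ, -1.58 for NDUFC1 and -1.46 for NDUFB9. The NFKBIZ call was lost with limma-voom (adjusted p = 0.0696), after thinning (0.0533) and without the ABTr1 pair (0.0581) or the ABTr3 pair (0.0776). The NDUFC1 and NDUFB9 calls were lost without the ABTr3 pair (adjusted p = 0.0515 and 0.0652) or the ABTr4 pair (0.0513 and 0.0715), and FXYD3 was lost with limma-voom (0.0553).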

How the results depend on the processing

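Calls between replicate 1 and replicate 2 fell to 1085 with no group block (1073 with the same sign in 5 of 5 pairs), and ranged from 2525 to 5718 (2473 to 5311 with the same sign in all pairs) when 1 pair was left out. Genes that differed between the clones and PEO1 numbered 814 with DESeq2, 773 with no filter and 298 to 915 when 1 clone pair was left out. The mean length slope was 0.117 for genes of at least 10 CPM, 0.121 without genes under 500 bases or on several chromosomes, 0.111 for genes of at least 500 bases (chosen after seeing the data), and 0.034 to 0.061 when 1 pair was left out. In the paired check the common biological coefficient of variation was 0.235, and 0.368 with no replicate block. None of EGR1, FOS and MALAT1 was called, and their signs turned. EGR1 was at -0.041 with no group block and at -0.29 to 0.93 with 1 pair left out (lowest without ABTr1), FOS at -0.089 to 1.02 (lowest without ABTr1) and MALAT1 at -0.35 to 0.50 (lowest without ABTr3). Of 121 genes followed between replicate numbers 114 were called, 104 of them with each pair left out in turn and 62 in every setting tried, no group block included. Of 50 followed between clones and PEO1, 49 were called and 35 stayed called with each clone pair left out, and FXYD3, STX19 and NFKBIZ were lost after thinning. With 1 parental pair, nothing shows how far a second parental pair would differ, and what the replicate number marks is not given in the labels.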

Other observations

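Other lists held members that moved with the replicate number in 5 of 5 pairs without a common direction of the list, and their counts are read against 14.8% of all genes higher in replicate 1 and 15.5% higher in replicate 2. Of 28 hypoxia and glycolysis genes 3 (10.7%) were higher in replicate 1, among them hexokinase HK2 (log2 fold change 1.60 ± 0.15 SE, adjusted p = 5.3e-04), and 2 (7.14%) in replicate 2, among them the MYC antagonist MXI1 (log2 fold change -1.27 ± 0.15 SE, adjusted p = 8.9e-04). Without the ABTr1 pair 4 of these genes were higher in replicate 2. Of 23 p53 targets 3 (13.0%) were higher in replicate 1 and 6 (26.1%) in replicate 2, with a median of -0.13. Among the 3 was AEN, a nuclease. AEN had 34.1, 65.2, 70.5, 58.4 and 64.1 CPM in replicate 1, against 9.32, 8.45, 22.2, 13.4 and 15.4 CPM in replicate 2 (log2 fold change 2.12 ± 0.18 SE, adjusted p = 4.4e-04), with no overlap. Of 20 heat shock genes 8 were higher in replicate 1, such as the mitochondrial chaperone HSPD1 (log2 fold change 0.64 ± 0.12 SE, adjusted p = 0.0041), and 5 in replicate 2, such as the small heat shock proteins HSPB1 (log2 fold change -1.25 ± 0.15 SE, adjusted p = 8.9e-04) and CRYAB (log2 fold change -1.06 ± 0.18 SE, adjusted p = 0.0029). The heat shock counts were 5 and 3 without the ABTr2 pair, 5 and 5 without the ABTr4 pair and 8 and 3 without ABTr1 or ABTr3. Of 20 NRF2 genes 3 were higher in replicate 1 (15%) and 5 in replicate 2 (25%), against 2 and 3 without the ABTr2 pair. FTH1, the ferritin heavy chain, had 2555, 2743, 3107, 1475 and 5578 CPM in replicate 1, against 5358, 8804, 6427, 4585 and 19661 CPM in replicate 2 (log2 fold change -1.45 ± 0.16 SE, adjusted p = 6.9e-04), and FTH1 has many processed pseudogenes, so its count is uncertain. Of 22 YAP targets 7 were higher in replicate 1, such as tissue factor F3 (log2 fold change 1.82 ± 0.26 SE, adjusted p = 0.0014) and FJX1 (log2 fold change 1.67 ± 0.22 SE, adjusted p = 0.0012), and 3 in replicate 2, such as AJUBA (log2 fold change -1.35 ± 0.12 SE, adjusted p = 4.4e-04), and without the PEO1 pair 11 were higher in replicate 1.

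Some genes of the parental pair did not follow the clones although all 5 pairs had the same sign. S100A9, a calcium-binding protein of inflamed epithelium, had 0.17 to 1.04 CPM in replicate 1 against 3.23 to 9.57 CPM in replicate 2 of the clones and 115 CPM in parental replicate 1 against 161 CPM in parental replicate 2 (difference -3.23 ± 0.54 SE, adjusted p = 0.0077). CLU, clusterin, had 23.2 to 40.8 CPM in replicate 1 against 29.9 to 206 CPM in replicate 2 of the clones and 17.3 CPM in parental replicate 1 against 742 CPM in parental replicate 2 (difference 3.67 ± 0.79 SE, adjusted p = 0.028), a call lost without ABTr4 (adjusted p = 0.0507) and under DESeq2 (0.0664).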
